A study of Mus musculus with 4 samples.

Results

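The 9 genes described here encode complement proteins and their receptors: the 3 chains of C1q (C1qa, C1qb, C1qc), the components C3, C4b, Cfb and Cfp, and the receptors C3ar1 and C5ar1. They were taken by symbol, and all 9 were found among the 31053 genes of the matrices. Transcripts were counted in single live CD45.2+ cells sorted from mouse lung and prepared with a droplet kit that tags the 3-prime ends of RNA. The Lmna_KO group holds 2 mice of genotype Lmna-flox/flox Vav1-cre+/-, and the WT group holds 2 mice of genotype Lmna-flox/flox Vav1-cre-/-. All were C57BL/6J mice aged 10 weeks and gave 1 library each. Both groups carry the floxed alleles of Lmna, the gene for lamins A and C of the nuclear envelope. The Vav1-driven Cre recombinase, which acts in blood cell lineages, is carried by the Lmna_KO mice alone, so Cre and the loss of Lmna cannot be told apart here. In tests between genotypes within a class, p-values measure the spread between these libraries, 2 in each group. In comparisons of classes, which had the library as a block, they measure how the difference between classes varied over the libraries.

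Complement is a cascade of plasma and tissue proteins that marks microbes and dying cells for uptake. C1q binds antibody complexes and cell debris and starts the classical pathway, in which C4b becomes part of an enzyme that cuts C3. Factor B (Cfb) takes part in the alternative C3-cutting enzyme, and properdin (Cfp) stabilises it, while the released peptides C3a and C5a act on myeloid cells through C3ar1 and C5ar1. Most circulating complement comes from the liver, but C1q is made largely by tissue macrophages and properdin largely by leukocytes.

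The libraries held 3860 to 4322 barcodes and 21780914 to 27045250 unique molecules (UMIs). Of 16528 barcodes, 15181 passed filters on detected genes and mitochondrial UMIs, with a median of 4112 to 4912 UMIs per cell in a library. Any pair of libraries shared 2 to 7 barcodes. Cells were assigned to 20 classes by 131 marker genes, none of them a gene described here, and class names below carry "-like" for that reason. Of the kept cells 14117 received a class and 1064 did not. WT 2 stands apart here, with 520 cells without a class against 161 to 198 in the other libraries. In spite of the CD45.2 sort, 76 cells had epithelial and 19 had fibroblast markers. In alveolar macrophage-like cells, Lmna had 52.6 and 82.1 CPM (its UMIs scaled to a common total of class UMIs per library) in Lmna_KO 1 and 2, against 382.5 and 334.0 CPM in WT 1 and 2. Its log2 fold change there was -2.36 ± 0.18 (SE; adjusted p = 1.54e-16, quasi-likelihood test of edgeR with Benjamini-Hochberg adjustment). In interstitial macrophage-like cells it had 103.5 and 104.8 CPM in Lmna_KO, against 220.7 and 146.8 CPM in WT libraries, without overlap but not called. In classical monocyte-like cells, where Lmna had 12.3 and 15.3 CPM in Lmna_KO and 17.6 and 15.1 CPM in WT libraries, the groups overlapped.

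C1q transcripts sat in very few cells. Of 10667 UMIs of the C1q chains in kept cells, 10444 (97.9%) lay in 64 cells with at least 10 of them, which are 0.422% of kept cells. C1qb was detected in all 64, C1qa and C1qc in 63 each, and 63 had all 3 chains. The Lmna_KO libraries held 18 and 13 such cells, and the WT libraries held 19 and 14. As a share of kept cells this is 0.478% and 0.362% in Lmna_KO, against 0.482% and 0.361% in WT, so the groups overlapped. The 4 exact 95% intervals, which cover counting error only, ran from 0.193% to 0.754%. A further 148 cells held 1 to 9 C1q UMIs.

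By the marker gate, 36 of the 64 cells were interstitial macrophage-like, a class defined by genes such as Stab1, Folr2 and Pf4 that holds 42 cells in all. Another 13 received no class, 6 were classical monocyte-like, 3 were alveolar macrophage-like and all from WT 2, and the rest were spread over 4 classes at 1 or 2 cells each. The gate was scored by a rule set after the C1q counts of cells had been seen. In interstitial macrophage-like cells, C1qa reached 5079 and 1710 CPM in Lmna_KO 1 and 2, against 4620 and 3733 CPM in WT 1 and 2. C1qb gave 4422 and 1533 CPM in Lmna_KO, against 4311 and 3345 CPM in WT. C1qc gave 2794 and 911 CPM in Lmna_KO, against 2601 and 2999 CPM in WT. Lmna_KO 2 was the lowest library for all 3 chains, and Lmna_KO 1 the highest for C1qa and C1qb, so the groups overlapped for C1qa and C1qb, and for C1qc one Lmna_KO library lay between the WT ones. For each chain the lowest of the 4 libraries exceeded every library of the other 12 classes that could be ordered, which are those with at least 5 cells in each library. The next classes for C1qa were conventional dendritic cell-like, with 72.0 CPM on average, and classical monocyte-like, with 32.9 CPM, and their ranges over libraries overlapped. The dendritic value came mostly from 1 cell of Lmna_KO 2 with 130 C1qa UMIs.

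In interstitial macrophage-like cells C1qa made up 41.3% and 41.2% of C1q UMIs in Lmna_KO 1 and 2, against 40.1% and 37.0% in WT 1 and 2. In classical monocyte-like cells C1qb made up 51.9% of C1q UMIs (544) and C1qa 29.9% (314). The 314 C1qa UMIs came from 8 of the 861 cells, and in Lmna_KO 1 there were 67 C1qb beside 11 C1qa UMIs.

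The 3 C1q genes lie side by side on the minus strand of chromosome 4 (mm10, GENCODE M21): C1qb at 136880129 to 136886187, C1qc at 136889804 to 136893065 and C1qa at 136895917 to 136898803. No start region was available for C1qa, so those of C1qb and C1qc are shown. They cover 250 bases before to 50 after the RefSeq start (GRCm38.p6, the mm10 assembly), which for both genes differs from the GENCODE end given above, 5′ to 3′ on the gene's strand. Capitals mark TGCTGA, the half-site bound by Maf factors, and GAGGAA, a PU box, each searched on both strands (reverse matches appear as TCAGCA and TTCCTC).
C1qb, chr4:136886151-136886450, minus strand: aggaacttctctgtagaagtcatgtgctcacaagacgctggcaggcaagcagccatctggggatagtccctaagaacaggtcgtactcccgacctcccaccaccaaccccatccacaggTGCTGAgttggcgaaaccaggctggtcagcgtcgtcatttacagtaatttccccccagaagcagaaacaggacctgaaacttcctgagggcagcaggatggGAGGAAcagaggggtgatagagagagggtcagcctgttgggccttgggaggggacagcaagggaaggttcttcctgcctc
C1qc, chr4:136892865-136893164, minus strand: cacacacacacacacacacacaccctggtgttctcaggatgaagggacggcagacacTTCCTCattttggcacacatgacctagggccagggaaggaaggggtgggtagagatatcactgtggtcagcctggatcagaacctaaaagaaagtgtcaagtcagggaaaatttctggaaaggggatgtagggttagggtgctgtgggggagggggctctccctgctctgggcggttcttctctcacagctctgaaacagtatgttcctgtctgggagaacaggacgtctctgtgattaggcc
The C1qb window holds both motifs and the C1qc window 1 PU box. Of 32851 mouse promoter windows of the same length, 19.5% hold the Maf half-site, 28.3% the PU box and 5.36% both. Among the 6 members with a window in the table, 4 hold the Maf half-site, 3 the PU box and 1, C1qb, both. The longest run of letters that the C1qb and C1qc windows share is 10 bases. These matches describe the letters only.

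**Figure D1:**
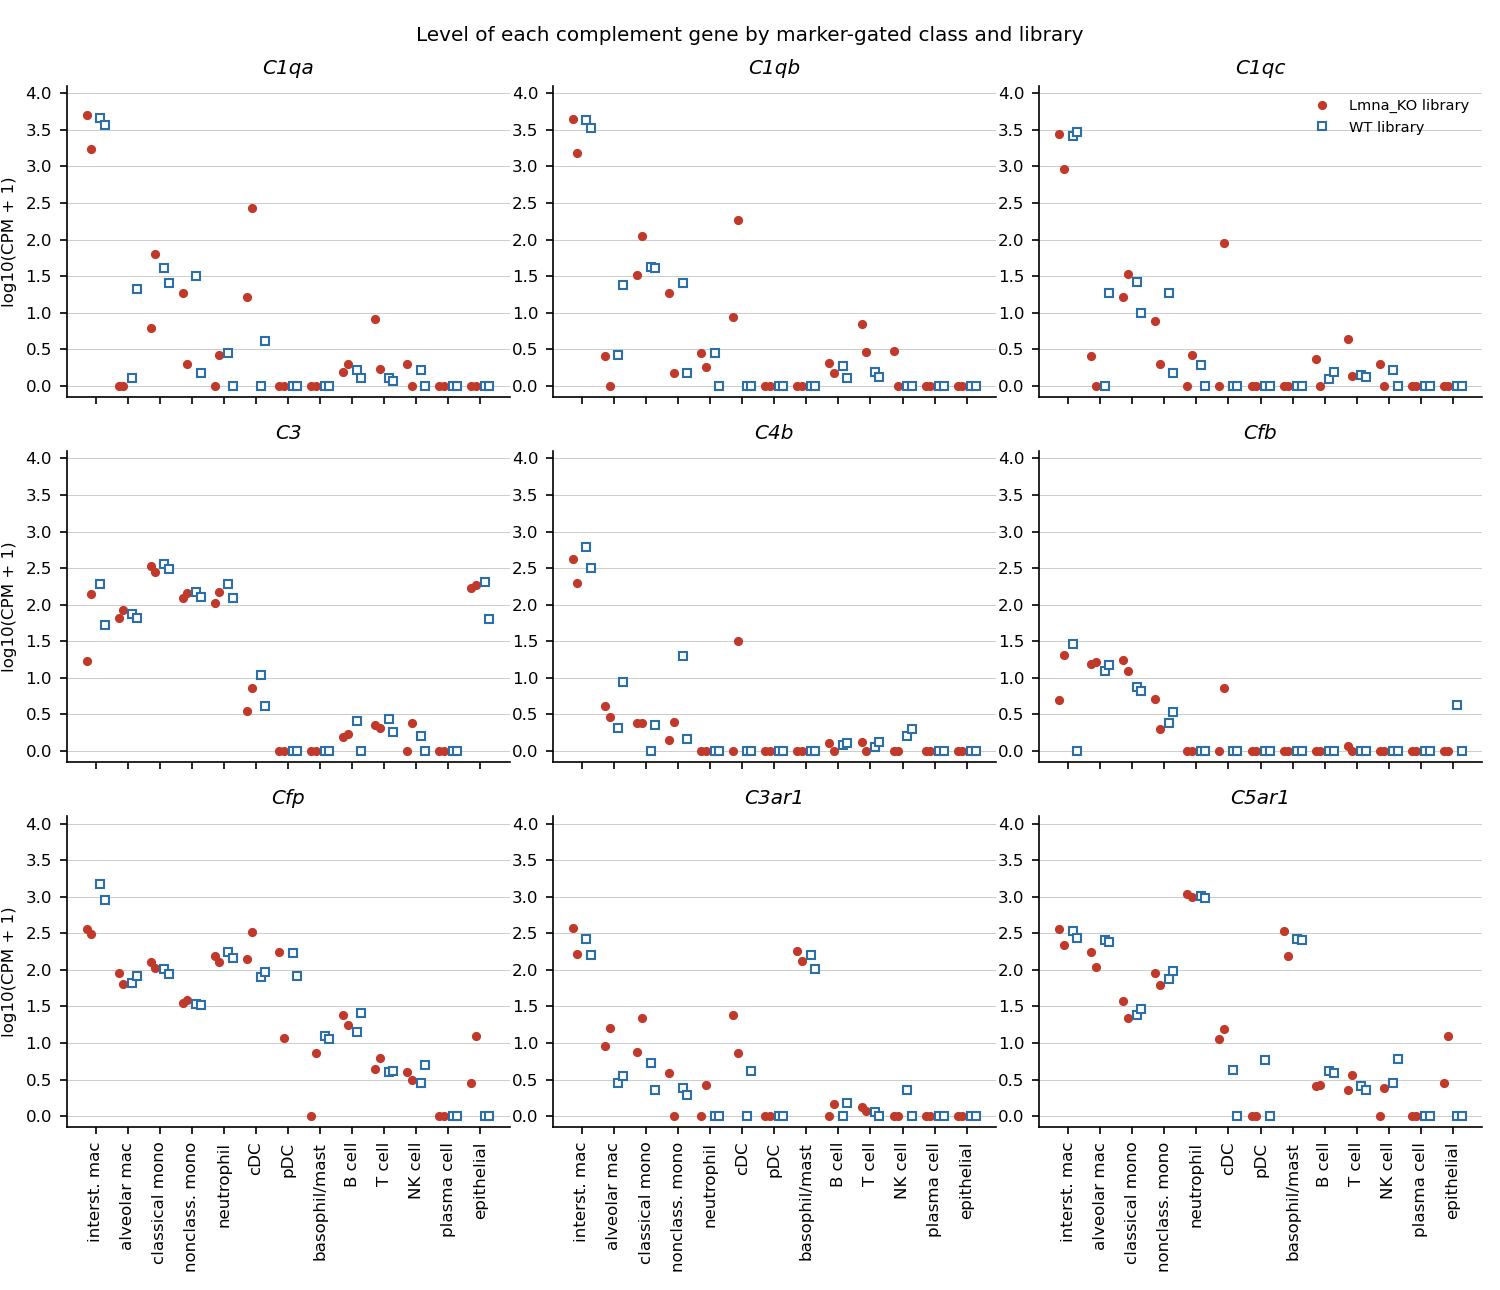
Level of the 9 complement genes in 13 marker-gated classes (x axis), as log10(CPM + 1) on the y axis, 1 point per library, Lmna_KO as filled circles and WT as open squares. The C1q genes and C4b stand highest in interstitial macrophage-like cells, C3 in classical monocyte-like cells (276.5 to 365.0 CPM) and C5ar1 in neutrophil-like cells (968 to 1077 CPM).

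C4b, the classical pathway partner of C1q, was also concentrated in interstitial macrophage-like cells. It had 421.9 and 196.5 CPM there in Lmna_KO 1 and 2, against 615.1 and 314.6 CPM in WT 1 and 2, and the groups overlapped. The highest value in any library of another ordered class was 31.1 CPM. Fibroblast-like cells, too few per library to be ordered, had a C4b UMI in 11 of 19 cells. Their C4b level ran from 61.1 to 321.5 CPM over libraries (25 UMIs in all) and overlapped the interstitial range. Within the class it was uneven: 18 of 42 cells had a C4b UMI, and 10 cells with at least 10 UMIs held 93.3% of the 297. Among 3677 B cell-like cells, 3 had a C4b UMI. The gene spans 34728380 to 34743882 on chromosome 17. Its close copy C4a is not among the genes counted here, so reads shared by both cannot be assigned and the C4b level is uncertain.

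C3, the central component, was highest in classical monocytes among the ordered classes. In classical monocyte-like cells it had 338.7 and 276.5 CPM in Lmna_KO 1 and 2, against 365.0 and 311.0 CPM in WT 1 and 2, and the groups overlapped. A C3 UMI was seen in 735 of 861 such cells, against 9 of 3677 B cell-like cells. The lowest classical monocyte-like library lay above all libraries of the other 12 ordered classes. Epithelial-like (mean 155.4 CPM), neutrophil-like (140.6 CPM), nonclassical monocyte-like (135.9 CPM), interstitial macrophage-like (99.6 CPM) and alveolar macrophage-like cells (71.6 CPM) followed, and each of these neighbours overlapped over libraries. Below them a gap led to conventional dendritic cell-like cells at 5.46 CPM, and lymphocyte-like classes stayed at 1.21 CPM or less on average. The 19 fibroblast-like cells, too few per library to be ordered, held 671 C3 UMIs, 9.48% of all C3 UMIs in kept cells. They had 3094 and 2287 CPM in Lmna_KO, against 3307 and 2991 CPM in WT libraries.

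Cfb, which supplies the enzyme of the alternative C3 convertase, was sparse, with 266 UMIs in kept cells. Alveolar macrophage-like cells had 14.3 and 15.3 CPM in Lmna_KO, against 11.3 and 14.02 CPM in WT libraries. Interstitial macrophage-like cells averaged 12.95 CPM from 10 UMIs and classical monocyte-like cells 10.0 CPM from 92 UMIs, and neither was separated from the alveolar class over libraries. Nonclassical monocyte-like cells came next with 2.23 CPM, and no Cfb UMI was seen in 1979 neutrophil-like cells. A count of 0 allows up to 2.41 to 2.74 CPM in these neutrophil libraries. Cfb (chromosome 17, 34856374 to 34862518) overlaps Gm20547 on the same strand, which had no UMI in any library, and counts of overlapping genes are uncertain.

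Cfp, the properdin gene on chromosome X (20925454 to 20931555), had UMIs in every ordered class except plasma cell-like cells. Interstitial macrophage-like cells averaged 761 CPM, followed by conventional dendritic cell-like (160.7 CPM), neutrophil-like (149.0 CPM), plasmacytoid dendritic cell-like (108.4 CPM), classical monocyte-like (105.7 CPM) and alveolar macrophage-like cells (74.4 CPM). All neighbours in this order overlapped over the 4 libraries. Nonclassical monocyte-like cells (34.6 CPM) and B cell-like cells (19.4 CPM) each stood apart from their neighbours.

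The receptor C3ar1, at 122847138 to 122856161 on chromosome 6, was high in a pair of classes from different lineages. Interstitial macrophage-like cells had 374.2 and 163.8 CPM in Lmna_KO 1 and 2, against 263.0 and 157.3 CPM in WT 1 and 2. Basophil or mast cell-like cells had 178.5 and 130.1 CPM in Lmna_KO, against 159.7 and 103.3 CPM in WT. These classes overlapped each other and lay above every library of the remaining classes, of which classical monocyte-like cells were next with 8.33 CPM on average. In both, Lmna_KO and WT libraries overlapped. Among the 1979 neutrophil-like cells, 1 cell had a C3ar1 UMI.

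The receptor C5ar1, at 16246743 to 16259540 on chromosome 7, was highest in neutrophils. Neutrophil-like cells had 1077 and 999 CPM in Lmna_KO 1 and 2, against 1028 and 968 CPM in WT 1 and 2, and the groups overlapped. A UMI was seen in 1650 of 1979 such cells, although their median depth was 2073 to 2280 UMIs in a library. As a background level, 30 of 3677 B cell-like cells, at a median of 3415 to 3879 UMIs, had a C5ar1 UMI. Interstitial macrophage-like (296.3 CPM), basophil or mast cell-like (254.7 CPM) and alveolar macrophage-like cells (194.8 CPM) followed with overlapping ranges. Nonclassical (80.0 CPM) and classical monocyte-like cells (27.2 CPM) were each apart from their neighbours.

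The macrophage gates were then compared within libraries, interstitial minus alveolar, in a fit with the library as a block. Of 8 members tested, 7 were called higher in interstitial macrophage-like cells at an adjusted p of 0.05, where 22.0% of 5379 genes were called in either direction. Nothing is read from the count against that background: 3 of the 7 are the chains of 1 protein, the C1q chains, C4b and C3ar1 are high only in the interstitial class of this pair and could pass the filter on low counts through it, and the gate's rule was set with C1q counts known. Summed over the 4 libraries, C4b had 417.0 CPM in interstitial and 3.87 CPM in alveolar macrophage-like cells, a 107.7-fold ratio, and C3ar1 had 266.8 and 3.50 CPM, a 76.3-fold ratio. The fitted log2 differences (± SE) were 7.05 ± 0.60 for C4b (edgeR quasi-likelihood test, adjusted p = 0.000204) and 5.86 ± 0.50 for C3ar1 (adjusted p = 5.74e-05). Because of the filter, these p-values are not taken as support for a difference.

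For C1qa the interstitial values given above stood against 0 and 0 CPM in the Lmna_KO and 0.269 and 20.1 CPM in the WT libraries of the alveolar class. A count of 0 allows up to 4.78 and 5.73 CPM there. The 20.1 CPM rest on 63 UMIs in 4 cells of WT 2. Summed over the 4 libraries the ratio was 506-fold for C1qa, 372-fold for C1qb and 332-fold for C1qc. Fitted sizes are not given for these chains, since they depend on the prior count where a library is at 0. The adjusted p-values were 0.0273 for C1qa, 0.0176 for C1qb and 0.0229 for C1qc by the same edgeR test. They are not taken as support for a difference, since the gate's rule was set with C1q counts known. The chains could also pass the filter on low counts through the interstitial class alone. With no filter on low counts C1qa lost its call (adjusted p = 0.0559, edgeR), as did C5ar1 without the block (adjusted p = 0.0509, edgeR). Without WT 1 the calls of C1qa and C1qb were lost. Without Lmna_KO 1 or without Lmna_KO 2 the calls of the C1q chains and of C5ar1 were lost, and 3 members (Cfp, C3ar1 and C4b) passed.

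Cfp was higher in interstitial cells by 3.33 ± 0.50 (adjusted p = 0.00617, edgeR quasi-likelihood test). C5ar1 was higher by 0.82 ± 0.21 (adjusted p = 0.0132), and its 4 interstitial values, 358.2 and 216.2 CPM in Lmna_KO and 338.1 and 272.6 CPM in WT libraries, each lay above the alveolar value of the same library. C3 differed by 0.55 ± 0.49 (adjusted p = 0.515) and was not called. Cfb did not pass the filter on low counts in this fit.

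**Figure D2:**
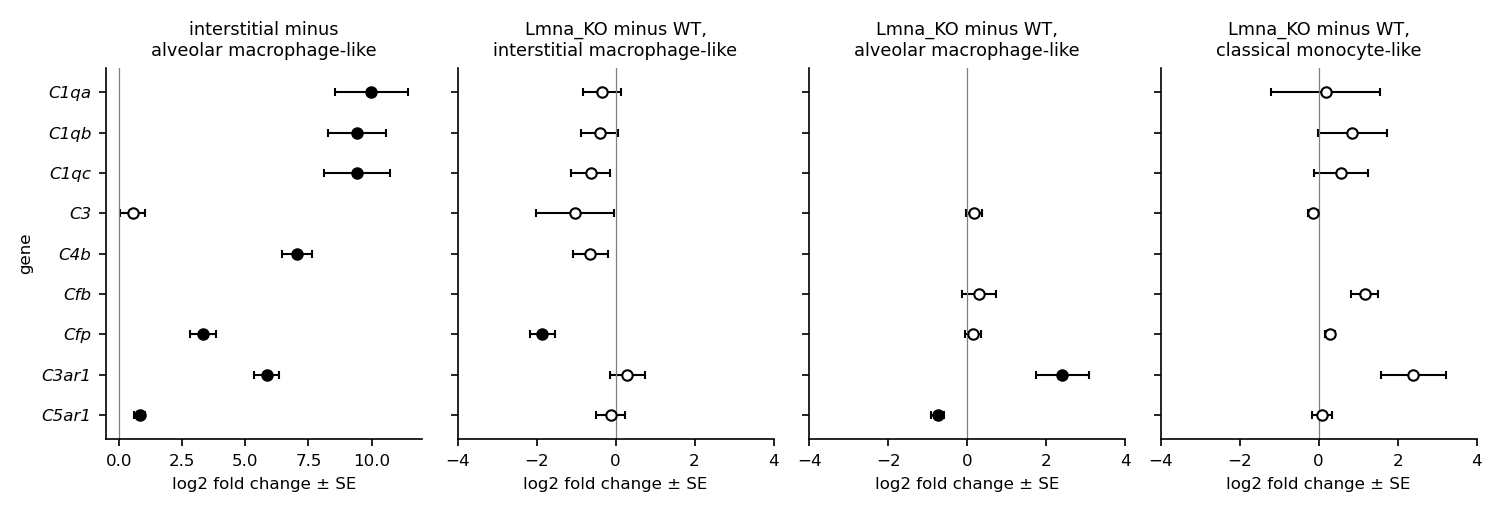
Log2 fold change of each member with its SE (x axis) in 4 comparisons, from edgeR fits over all genes. Filled points passed an adjusted p of 0.05 and open points did not, and a member without a point did not pass the filter on low counts. Fitted sizes of the C1q chains in the first panel depend on the prior count, since alveolar libraries reach 0. In the first panel 7 members are filled and to the right of 0, higher in interstitial than in alveolar macrophage-like cells.

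Between genotypes, 2 of 5 members tested were called in alveolar macrophage-like cells, 1 in each direction, where 7.95% of 9047 genes were called. Nothing is read from this count, since C3ar1 could pass the filter on low counts through the Lmna_KO libraries alone. The class held 50 and 30 cells in Lmna_KO 1 and 2, against 225 and 234 cells in WT 1 and 2. C5ar1 had 172.1 and 108.9 CPM in Lmna_KO, against 258.0 and 240.3 CPM in WT libraries. Both Lmna_KO values lay below both WT values. The log2 fold change was -0.74 ± 0.16 (SE, n = 2 libraries each; edgeR quasi-likelihood test, adjusted p = 0.00183).

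Per alveolar macrophage-like cell the median C5ar1 count was 2 and 1 UMIs in the Lmna_KO libraries and 4 and 3 UMIs in the WT libraries. A UMI was seen in 37 of 50 and 24 of 30 cells in Lmna_KO, against 201 of 225 and 201 of 234 cells in WT. With each cell thinned to 2000 UMIs, which left 45 and 30 cells in Lmna_KO and 222 and 222 in WT, the expected share was 29.2% and 19.95% in Lmna_KO, against 39.3% and 38.1% in WT libraries. The median depth of these cells, 13504 and 16717 UMIs in Lmna_KO and 16919 and 13590 UMIs in WT, overlapped between the groups. The change of C5ar1 stayed negative without each library in turn (-1.14 to -0.45, adjusted p 0.000188 to 0.177 by edgeR), and of these 4 fits passed the threshold in the one without Lmna_KO 1, so the call was lost without Lmna_KO 2, WT 1 or WT 2. Without WT 1 the members called were C1qa and C1qb, whose alveolar UMIs lie mostly in WT 2. With mitochondrial UMIs limited to 5% the change of C5ar1 was -0.68 (adjusted p = 0.0772).

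C3ar1 was higher in the Lmna_KO libraries of the same cells, at very low levels. It could pass the filter on low counts through that group alone, so its p-value is not taken as support for a rise. It had 7.97 and 15.3 CPM (5 and 8 UMIs) in Lmna_KO 1 and 2, against 1.88 and 2.55 CPM (7 and 8 UMIs) in WT 1 and 2. Both Lmna_KO values lay above both WT values, with a log2 fold change of 2.41 ± 0.67 (edgeR quasi-likelihood test, adjusted p = 0.0138). The UMIs came from 4 and 6 cells in Lmna_KO, against 7 and 2 cells in WT. None of the 10 Lmna_KO cells had a C1q UMI, while 1 of 7 in WT 1 and both in WT 2 did. The call was lost without either Lmna_KO library (adjusted p = 0.052 without Lmna_KO 1 and 0.321 without Lmna_KO 2), and without either WT library or at the 5% mitochondrial limit C3ar1 did not pass the filter on low counts. DESeq2 gave it no adjusted p.

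The other 3 members tested there, C3 (0.18 ± 0.20), Cfb (0.30 ± 0.42) and Cfp (0.16 ± 0.20), had adjusted p-values of 0.683 to 0.767 by the same edgeR test. The median change of the 5 was 0.18, against 8.15e-05 over all genes tested. Of the 9 markers of the class, Marco was higher in Lmna_KO libraries and Mrc1 and Fabp1 lower, so the gate's own genes differed between the groups as well. Summed over 11 genes, the interstitial macrophage markers had 267.6 and 267.4 CPM in these Lmna_KO cells, against 228.5 and 232.3 CPM in WT cells; 3 were higher in both Lmna_KO libraries than in both WT libraries, 3 were lower, and Folr2 was at 0. Nonclassical monocyte markers, with Ear2 the highest, summed over 8 genes to 1302 and 1419 CPM in Lmna_KO, against 2219 and 2248 CPM in WT, with 5 lower and none higher in both Lmna_KO libraries than in both WT libraries. Conventional dendritic cell markers had 74.9 and 85.9 CPM in Lmna_KO, against 138.7 and 133.5 CPM in WT, with 5 of 8 lower and none higher. Classical monocyte markers had 681.9 and 786.8 CPM in Lmna_KO, against 951.7 and 1063 CPM in WT, with 3 of 6 lower and 2 higher. Neutrophil markers had 430.1 and 374.3 CPM in Lmna_KO, against 312.8 and 309.4 CPM in WT, with 5 of 10 lower and 1 higher. The 7 B cell markers summed to 4.78 and 17.2 CPM in Lmna_KO, against 73.1 and 70.4 CPM in WT, with all 7 lower in both Lmna_KO libraries than in both WT libraries. Their part in the results was not tested.

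**Figure D3:**
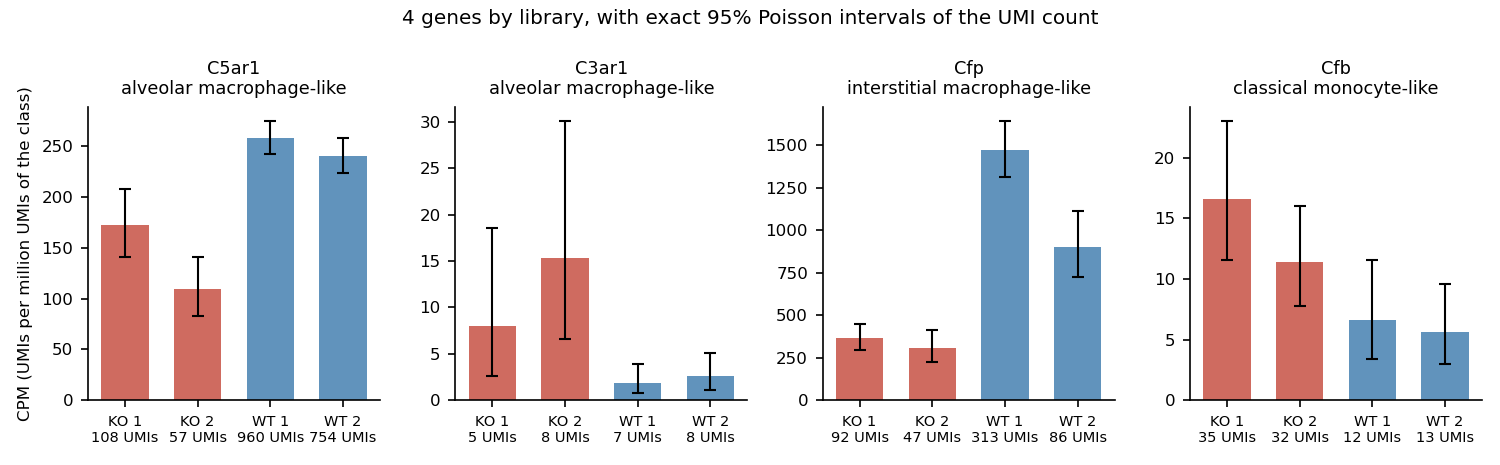
CPM of C5ar1 and C3ar1 in alveolar macrophage-like, Cfp in interstitial macrophage-like and Cfb in classical monocyte-like cells (y axis), per library (x axis, Lmna_KO left of WT, with the UMI count under each name). Bars start at 0 and error bars are exact 95% Poisson intervals of the count; C3ar1 rests on 5 to 8 UMIs per library.

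Interstitial macrophage-like cells numbered 13 and 9 in Lmna_KO and 14 and 6 in WT libraries, under the 25 per library asked of the other classes, and were tested between genotypes after the data had been seen. Of 8 members, Cfp alone was called, where 1.5% of 3075 genes were. It had 366.2 and 307.9 CPM in Lmna_KO 1 and 2, against 1470 and 901.7 CPM in WT 1 and 2, and the groups did not overlap. The log2 fold change was -1.86 ± 0.32 (edgeR quasi-likelihood test, adjusted p = 0.021). The median cell had 7 and 3 Cfp UMIs in Lmna_KO, against 17 and 4 in WT, and 1 cell of WT 1 held 66 of its 313. Cfp kept its call without each library in turn (-2.17 to -1.43). Without Lmna_KO 1 the C1q chains were called beside it, and without Lmna_KO 2 C3 was. When the limit on rival classes was applied to every other class, and not only to those of another lineage, the adjusted p of Cfp was 0.147.

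The C1q chains and C4b had log2 fold changes of -0.64 to -0.34 in these cells, with adjusted p-values of 0.561 to 0.811 by the same test. For C3 the change was -1.02 ± 0.98 (adjusted p = 0.716), with 15.9 and 137.6 CPM in Lmna_KO, against 192.5 and 52.4 CPM in WT libraries, which overlapped. C3ar1 (0.30 ± 0.44) and C5ar1 (-0.13 ± 0.36) had adjusted p-values of 0.815 and 0.923. The median of the 8 was -0.52, against -0.01 over all genes tested. Markers of neutrophils summed to 1847 and 176.9 CPM in the Lmna_KO and 2010 and 199.2 CPM in the WT libraries of this class, so they differed within each group and overlapped between the groups. Classical monocyte markers summed to 1318 and 2424 CPM in Lmna_KO, against 4062 and 2936 CPM in WT, and conventional dendritic cell markers, of the class second in Cfp, to 199.0 and 255.5 CPM in Lmna_KO, against 342.8 and 576.7 CPM in WT. Both sums were lower in both Lmna_KO libraries, as Cfp was, with 1 of 6 and 2 of 8 markers lower without overlap and none higher, and their part in the Cfp result was not tested. The difference between the genotype effects on Cfp, interstitial minus alveolar, was -1.94 ± 0.41 (adjusted p = 0.0533) and was not called, where 0.939% of 2983 genes were. It was called without WT 2, without Lmna_KO 1 and without Lmna_KO 2, while without WT 1 the C1q chains were called.

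In classical monocyte-like cells none of 8 members was called by edgeR or DESeq2, where 0.778% of 8742 genes were called by edgeR. By edgeR, 3 of the 8 members had an unadjusted p under 0.05, as did 922 of the 8742 genes. Nothing is read from the count of 3, since C3ar1, 1 of them, could pass the filter on low counts through the Lmna_KO libraries alone. Cfb had 16.6 and 11.4 CPM in Lmna_KO 1 and 2, against 6.62 and 5.61 CPM in WT 1 and 2. The groups did not overlap, and the log2 fold change was 1.16 ± 0.34 (adjusted p = 0.209, edgeR). The UMIs were 35 and 32 in Lmna_KO, against 12 and 13 in WT.

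C3ar1 had 6.63 and 20.97 CPM in the Lmna_KO and 4.41 and 1.29 CPM in the WT libraries of this class (2.40 ± 0.83, adjusted p = 0.421, edgeR), again without overlap, and 1 cell of Lmna_KO 2 held 18 of its 59 UMIs. Since C3ar1 could pass the filter on low counts through the Lmna_KO libraries alone, its p-value is not taken as support for a rise. Cfp had 128.8 and 104.8 CPM in Lmna_KO, against 101.4 and 87.6 CPM in WT (0.29 ± 0.13, adjusted p = 0.453, edgeR). C3, the member with the most UMIs in these cells, gave -0.15 ± 0.12 (log2; adjusted p = 0.72). The median of the 8 was 0.43, against 0.00214 over all genes tested. Some alternatives called members here: C3ar1 without the filter on low counts, and Cfp, C1qc and C3ar1 with a stricter gate. Without Lmna_KO 1 the C1q chains and C3ar1 were called and without Lmna_KO 2 C1qa was, in a class with 6 cells of at least 10 C1q UMIs, 1 and 3 of them in Lmna_KO 1 and 2 and 1 in each WT library.

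In the other classes no member was called by edgeR or DESeq2. This held for 6 members tested in nonclassical monocyte-like cells (0.862% of genes called), 3 in neutrophil-like cells (0.928%) and 2 in B cell-like cells (0.758%), with none at an unadjusted p under 0.05. In T cell-like cells 2 members were tested and 1, C1qb, had an unadjusted p under 0.05, in a class where 0.0% of 10555 genes were called (633 at an unadjusted p under 0.05 and 46 by DESeq2). Its 54 UMIs there included 35 in 1 cell of Lmna_KO 1, and it could pass the filter on low counts through the Lmna_KO libraries alone. No member passed the low-count filter in NK cell-like cells (0.539%). In nonclassical monocyte-like cells without WT 2, C4b was called.

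In neutrophil-like cells the change of C5ar1 was 0.02 ± 0.17 on the log2 scale (adjusted p = 0.994, edgeR). Whether its change differed between classes was tested directly. The alveolar macrophage-like effect minus the neutrophil-like one was -0.81 ± 0.22 (adjusted p = 0.1), minus the classical monocyte-like one -0.86 ± 0.24 (adjusted p = 0.116) and minus the nonclassical monocyte-like one -0.62 ± 0.20 (adjusted p = 0.161). No member was called in these 3 tests, where 0.978%, 1.29% and 1.64% of genes were. C5ar1 had an unadjusted p under 0.05 in each, as did 518 of 5318, 998 of 8091 and 1072 of 8059 genes. The 3 tests share the alveolar effect, so they are not independent. C5ar1 was called in all 3 when genes with low counts were kept. Without WT 1, C1q chains were called for alveolar minus classical and alveolar minus nonclassical cells. Nor was a member called for classical minus nonclassical monocyte-like cells (0.372% of genes) or nonclassical monocyte-like minus neutrophil-like cells (0.0184%). The same held for classical monocyte-like minus neutrophil-like cells (0.202%), with Cfp and 283 of 5450 genes at an unadjusted p under 0.05.

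The classes that held a gene's UMIs differed between the libraries along with the number of alveolar macrophage-like cells. Of the C5ar1 UMIs of kept cells, alveolar macrophage-like cells held 5.61% and 3.301% in Lmna_KO 1 and 2, against 36.4% and 29.9% in WT 1 and 2. Neutrophil-like cells held 62.2% and 71.3% in Lmna_KO, against 42.7% and 47.8% in WT. Of the few Cfb UMIs, alveolar macrophage-like cells held 12.9% and 13.1% in Lmna_KO, against 60.9% and 66.7% in WT, and classical monocyte-like cells 50% and 52.5% in Lmna_KO, against 17.4% and 19.7% in WT. In none of these 4 shares did the groups overlap. Over all kept cells Cfb had 3.39 and 2.88 CPM in Lmna_KO, against 2.72 and 2.52 CPM in WT, and C5ar1 had 93.1 and 81.5 CPM in Lmna_KO, against 103.7 and 96.4 CPM in WT. Summed this way, Cfb lay higher and C5ar1 lower in both Lmna_KO libraries than in both WT libraries. C3ar1 also lay higher, with 9.043 and 6.465 CPM in Lmna_KO, against 4.093 and 2.025 CPM in WT, and the remaining members overlapped. At this level a change in the number of cells of a type and a change in RNA per cell cannot be told apart.

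**Figure D4:**
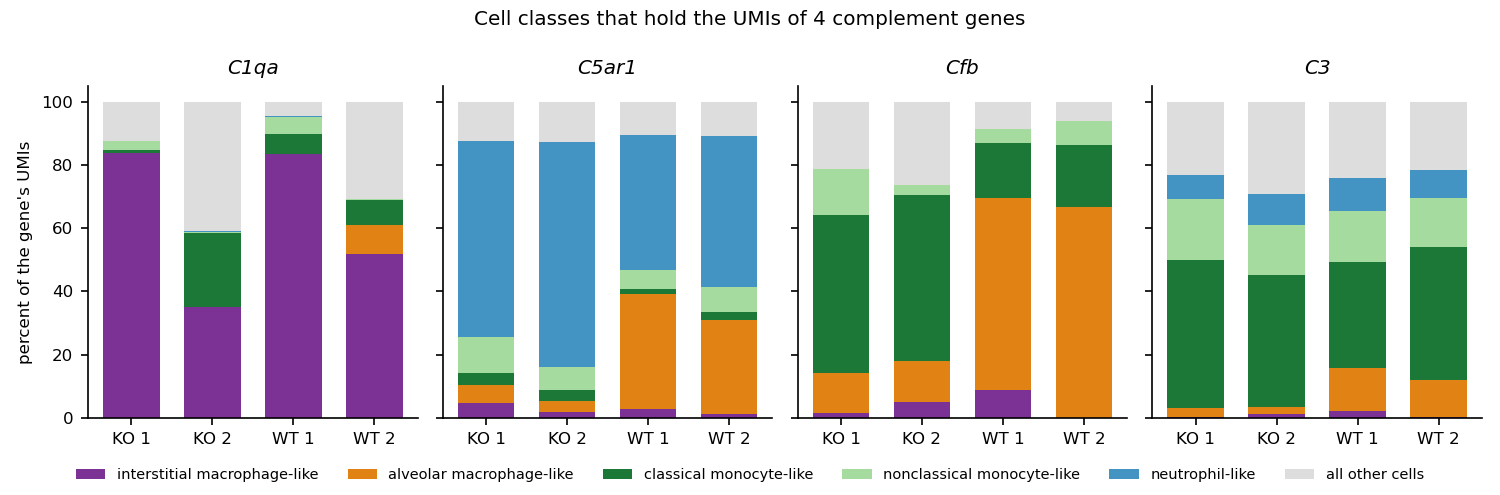
Percent of a gene's UMIs in kept cells (y axis) held by 5 marker-gated classes and by all other cells, stacked, for C1qa, C5ar1, Cfb and C3 in each library (x axis, Lmna_KO left of WT). The alveolar macrophage-like part of C5ar1 is 5.61% and 3.301% in Lmna_KO and 36.4% and 29.9% in WT libraries.

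Outside the 9 members, 42 further genes of the pathway were looked up. In alveolar macrophage-like cells 8 were tested and 1 was called, where 7.95% of 9047 genes were, and nothing is read from this count. The called gene was Cd93, once described as a C1q receptor. It had 156.1 and 196.7 CPM in Lmna_KO, against 110.7 and 87.6 CPM in WT libraries (0.89 ± 0.17, adjusted p = 9.46e-05, edgeR). This call was lost at the 5% mitochondrial limit (adjusted p = 0.0593) and without WT 2 (adjusted p = 0.105). In classical monocyte-like cells 7 were tested and 1 was called, where 0.778% of 8742 genes were. The called gene was Itgax, the alpha chain of complement receptor 4. It had 28.9 and 35.9 CPM in Lmna_KO, against 6.62 and 10.8 CPM in WT (1.86 ± 0.28, adjusted p = 0.00931, edgeR). Without the cells in the top 5% of UMIs its change was 0.82 (adjusted p = 0.563), and the call was also lost with the stricter gate (1.47, adjusted p = 0.153) and with the rival limit applied to every class (0.98, adjusted p = 0.704). Its effect differed from the one in alveolar macrophage-like cells by -1.83 (alveolar minus classical, adjusted p = 0.00242, edgeR), and from the one in nonclassical monocyte-like cells by 2.11 (classical minus nonclassical, adjusted p = 0.00159). Both differences lost their calls without the top 5% of UMIs, at -0.82 (adjusted p = 0.36) and 1.06 (adjusted p = 0.378), and with the rival limit applied to every class, at -0.96 (adjusted p = 0.738) and 1.22 (adjusted p = 0.635). The difference from alveolar cells was also lost without WT 1 (adjusted p = 0.0552) and without Lmna_KO 2 (adjusted p = 0.0943). Interstitial minus alveolar, the difference of the Itgax effects was 2.09 (adjusted p = 0.0497), from 6 to 14 interstitial cells per library, and 0 genes were called there with the rival limit applied to every class.

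Between the macrophage gates, where 11.6% of 5379 genes were called higher and 10.4% lower, 9 such genes were tested. Of these, 4 were higher in interstitial macrophage-like cells and none lower. Among them were Fcna, a ficolin that starts the lectin pathway (adjusted p = 0.0106, edgeR), Itgam, the alpha chain of complement receptor 3 (5.55 ± 0.26, adjusted p = 3.5e-08), and Vsig4, a macrophage receptor for C3 fragments. Fcna had 748.3 and 144.1 CPM in Lmna_KO and 2338 and 2275 CPM in WT libraries of the interstitial class, against 0 and 5.73 CPM in Lmna_KO and 0.269 and 1.59 CPM in WT libraries of the alveolar class, 9 UMIs in all. Its call was lost without Lmna_KO 1 (adjusted p = 0.0918). Vsig4 had 294 UMIs in interstitial and none in alveolar macrophage-like cells, an at least 1102-fold higher level against a floor of 3 counts over the 4 libraries. Fcna, Itgam and Vsig4 could pass the filter on low counts through the interstitial class alone. Nothing is therefore read from their calls or from the count of 4. No gene of the terminal pathway or of the other convertase components passed the filter on low counts in any fit. Hc, which encodes C5, had its highest level, 736.9 CPM on average, in epithelial-like cells, as did C6 with 75.1 CPM, and C8a reached 7.68 CPM in plasmacytoid dendritic cell-like cells. Of other uncalled genes, Cd55, Cr1l and Clu among the regulators peaked at 583.8 CPM in B cell-like, 148.6 CPM in NK cell-like and 395.3 CPM in epithelial-like cells, and Itgb2, Cr2 and C5ar2 among the receptors at 828.1 CPM in nonclassical monocyte-like, 141.0 CPM in B cell-like and 116.4 CPM in neutrophil-like cells. C1ra, Colec12 and Fcnb of the initiation genes and C2 of the convertase genes stayed at 55.3 CPM or below on average in each ordered class.

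Over the 52 sums of 13 classes and 4 libraries, log2(CPM + 1) of 11460 genes outside the members and gate markers was compared with each member by Pearson correlation, as a description of likeness in sums that share libraries. Ednrb, Fcna and Fcrls were most like C1qa (r 0.88 to 0.919), C1qb and C1qc alike. C4b was closest to Fcna (0.951), Ednrb (0.942) and Chp2 (0.925), and C3 to Lyz2 (0.928), Dram1 (0.896) and Cd14 (0.893). C5ar1 was closest to Alox5 (0.932), to C5ar2 (0.926), its neighbour on chromosome 7 at 16234585 to 16244154, and to Cebpb (0.911). C3ar1 was closest to Slc7a8 (0.876), Il6 (0.829) and Ecm1 (0.813), Cfp to Rab11fip5 (0.857), Pira2 (0.857) and Slc6a6 (0.854), and Cfb to Dennd2a (0.866), Ms4a8a (0.854) and Plekhg1 (0.847). Among the members, the C1q chains had correlations of 0.973 to 0.983 with each other and 0.897 to 0.935 with C4b.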

How the data were processed

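Live CD45.2+ lung cells were profiled as single cells. The files deposited by the authors hold unnormalized UMI counts, 1 matrix of genes by barcodes for each library, per the file headers. Cell Ranger 3.0.2, Seurat 3.0.0 and the mm10 build are listed in the submitters' processing notes. Barcodes were kept from 200 detected genes upwards and up to 10% mitochondrial UMIs. Each cell was scored for 20 classes by the mean of its scaled log expression over a class's markers, capped at the 90th percentile of positive cells. It joined its best class when at least 3 markers were detected and no class of another lineage exceeded 0.67 of that score; this rule was set after marker and C1q counts of cells had been seen. Within 0.1 of that ratio, 1 interstitial macrophage-like cell lay inside and 3 outside, and 8 alveolar macrophage-like cells inside and 8 outside. No doublet caller was run: cells with markers of several lineages stayed without a class (890). Free RNA was not subtracted. Counts were not divided by gene length, so levels are compared within a gene.

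UMIs were summed per library and class (at least 25 cells in each library), genes with low counts were removed by filterByExpr, and TMM factors were applied. The model was the robust quasi-likelihood fit of edgeR 4.0.16 in R 4.3.3, Lmna_KO minus WT, with Benjamini-Hochberg adjustment over all genes of a fit and a threshold of 0.05. Class differences had the library as a block. The fits were tested on simulated data. Alternatives were DESeq2 1.42.0, its size factors, no filter on low counts, a gate of 4 markers, leaving out the top 5% of UMIs, a mitochondrial limit of 5%, the replicate block and each library left out. Coordinates are from GENCODE M21 and promoter windows from RefSeq (GRCm38.p6), whose table held 6 of the 9 members. Shares have exact Clopper-Pearson and CPM exact Poisson 95% intervals, and the limit of a count of 0 is 3 counts; both cover counting error only.

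Members, lists and markers were chosen with earlier results of these data known. Named are all members, Lmna, other pathway genes called in a class (up to 4 by p), up to 3 uncalled genes per list by mean CPM, and the 3 genes most like each member among those averaging 10 CPM or more in their highest class. Of the pathway genes called by this rule, 1 is not reported here.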

Additional observations from a re-analysis of the deposited data

How the results depend on the processing

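The labels give no shared litter or day for a replicate number. Deviations of same-numbered libraries correlated at 0.00119 to 0.104 over 7 classes, the interstitial class not among them. Whether same-numbered libraries share a batch was not tested. With the replicate block, 2 members were called in alveolar macrophage-like and 1 in interstitial macrophage-like cells and 0 in the other classes, as without it, while the genes called changed to 590 (alveolar), 109 (classical monocyte-like), 184 (nonclassical), 119 (neutrophil-like), 153 (B), 145 (NK) and 188 (interstitial), against 719, 68, 75, 53, 74, 44 and 46 without it. For interstitial minus alveolar cells with no replicate block, 6 members were called. The alternatives of the interstitial comparisons with mitochondrial UMIs limited to 5% were not run, since 1 library kept 1 cell. The interstitial test between genotypes, the gate with 1 ratio for all classes and the bias-adjusted quasi-likelihood test were chosen after seeing the data.

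Members called in alveolar macrophage-like cells were 1 with DESeq2 and 0 at the 5% mitochondrial limit, and 0 to 2 with a library left out; at that limit Cfp (-0.70) and C3 (-0.27) turned negative. In classical monocyte-like cells, 1 member was called with no low-count filter, 3 with the stricter gate and 0 to 4 with a library left out. Nonclassical monocyte-like cells had 0 to 1 with a library left out. In interstitial macrophage-like cells, 0 were called with 1 ratio for all classes, where C4b (0.74) and C5ar1 (0.0935) turned positive, and 1 to 4 with a library left out; C5ar1 was 0.0365 with the stricter gate. Interstitial minus alveolar calls were 3 to 7 with a library left out. Of the differences between genotype effects, 1 member was called with no low-count filter in each of the 3 alveolar pairs and in interstitial minus alveolar, 1 without the top 5% of UMIs in alveolar minus classical and in interstitial minus alveolar, and 1 with the stricter gate in classical minus nonclassical and in classical minus neutrophil. With a library left out they were 0 to 3 (alveolar minus classical), 0 to 2 (alveolar minus nonclassical), 0 to 1 (alveolar minus neutrophil), 0 to 2 (classical minus nonclassical) and 2 to 3 (interstitial minus alveolar). The cause of these changes was not tested.

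Log2 fold changes that turned sign with a library left out ranged, in alveolar macrophage-like cells, over -0.1451 to 0.3782 for Cfp, in nonclassical monocyte-like cells over -0.3924 to 0.1103 for C5ar1 and -0.172 to 0.082 for C3, and in neutrophil-like cells over -0.0305 to 0.0515 for C5ar1. In interstitial macrophage-like cells they ranged over -1.341 to 0.17 for C1qb, -1.308 to 0.2446 for C1qa, -0.4208 to 0.7866 for C3ar1, -0.5279 to 0.1812 for C5ar1 and -3.066 to 0.3489 for C3, and for interstitial minus alveolar C3 over -0.127 to 0.9909. Over the alternatives, library omissions included, the genes called were 120 to 735 in alveolar, 0 to 188 in interstitial and 29 to 258 in classical monocyte-like cells, and 833 to 1926 between the macrophage gates. Depth limits the sparse genes most: Cfb, C4b outside interstitial cells and C3ar1 outside its 2 highest classes rest on few UMIs per library.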
